A study of Mus musculus with 40 samples.

Results

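The comparison set the 4T1 line carrying hairpin 66708 against 4 lines carrying hairpins named after Mgp, in the mouse mammary carcinoma line 4T1. The members were 10 of the 20 libraries: 2 of 66708, taken from the table of Slpi hairpins, and 8 of Mgp1, Mgp1U1, Mgp1U3 and Mgp2 (2 each), taken from the table of Mgp hairpins. They were chosen by hairpin name and table, not by any measured value. The study compared off-target changes between TRC hairpins and hairpins designed with shERWOOD, using Slpi and Mgp as targets. Here the Mgp-directed lines served as lines not directed at Slpi. Infection used a multiplicity of 0.3, and drug selection lasted about 10 days. The 66708 line was selected with 1 µg/ml puromycin, and the 4 Mgp-directed lines with 500 µg/ml hygromycin. All lines carried a hairpin, and untransduced 4T1 cells were not analysed here, so no value below is a change from untreated cells. That 66708 is a TRC hairpin was inferred from its catalogue-style number and its drug. Target gene, hairpin source, vector, drug and table all separate 66708 from the Mgp-directed lines, and they cannot be told apart in this comparison. Because the comparison lines are directed at Mgp, any difference may lie with 66708 or with them. The other hairpins in the tables, which give context, were 88943, the other puromycin line, from the Mgp table, and Slpi1U1, Slpi1U2, Slpi2 and Slpi4, hygromycin lines from the Slpi table.

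A short hairpin RNA is cut by the cell into a small RNA that guides an Argonaute protein to matching mRNAs, and bases near its 5′ end, the seed, can also pair with mRNAs that were not meant to be targeted. Slpi encodes a secreted inhibitor of leukocyte elastase and other serine proteases, made by many epithelia. Mgp encodes matrix Gla protein, a secreted protein that prevents calcification of soft tissue and binds bone morphogenetic proteins. 4T1 cells are an epithelial line that metastasizes in mice and secretes proteases, chemokines and prostaglandins. The hairpin sequences were not analysed here, so no seed match was looked for.

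Levels are given as normalized CPM, the share of a library's reads that a gene takes, in CPM, after scaling all 20 libraries together. The 66708 libraries held 13.3 and 28.5 M reads and the 8 Mgp-directed libraries 12.1 to 22.9 M. Reads assigned to the ribosomal RNA precursor Rn45s made up 2.77% and 2.31% of the 66708 libraries and 0.961% to 2.39% of the Mgp-directed ones, and the part of this in the results was not tested. The 9 epithelial markers summed to 2510 to 2588 normalized CPM in 66708 and to 2199 to 2284 in the Mgp-directed libraries. Slpi itself is 1 of the 9, at a mean of 155 in 66708 and 517 in the Mgp-directed lines. The rest of these markers therefore differed by more than the sums show. The 9 fibroblast markers summed to 43.6 to 43.7 and to 26.2 to 35.9. Nearly all of this was Pdgfra, at a mean of 43.0 in 66708 and 31.2 in the Mgp-directed lines. Only this 1 of the 9 was abundant enough to be tested (log2 difference 0.48, limma, adjusted p = 1.9465e-05). Lum had no read in 66708, and Thy1 had none in 66708 or in the Mgp-directed libraries. The 9 leukocyte markers found in the tables summed to 4.18 to 4.83 and to 4.60 to 6.10, with no read of Cd3e in 66708. Markers of endothelium, adipocytes and myoepithelium summed to at most 1.94 in 66708. The part of these differences in marker levels in the results was not tested. In such bulk samples, fewer cells of a type and less RNA per cell cannot be told apart.

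Slpi was lower in 66708 than in each of the 8 Mgp-directed libraries. Slpi is on chromosome 2, minus strand, at 164354070 to 164389095 in GRCm38. It stood at 161.7 and 148.8 normalized CPM in the 66708 libraries. Among the comparison lines it stood at 460.1 and 469.7 in Mgp1, 473.7 and 477.7 in Mgp1U1, 536.2 and 487.2 in Mgp2, and 644.4 and 584.4 in Mgp1U3. The groups did not overlap, Mgp1U3 was the highest line, and 66708 held 30.05% of the mean of the 4 lines, which was 517 ± 68.2 (SD, n = 4 lines). The log2 difference was -1.73 ± 0.05 (SE; limma, adjusted p = 2.566e-17), a 3.33-fold lower level. With the mean of each line as 1 sample, the spread then coming from the 4 Mgp-directed lines, the difference kept its side of the threshold (limma, adjusted p = 0.0001049). The level was not the lowest among the lines: 88943, a hairpin of the other table, had 137.0 and 127.1 normalized CPM, below 66708 by a log2 difference of 0.23 ± 0.06 (limma, adjusted p = 0.003109). The 8 libraries of the Slpi-directed gene-named lines lay at 45.0 to 60.9, and 66708 was 3.00-fold above their mean (log2 difference 1.58, limma, adjusted p = 4.989e-16).

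Mgp was the gene with the largest difference, and its direction was fixed in part by the comparison lines, whose hairpins are directed at it. Mgp is on chromosome 6, minus strand, at 136872435 to 136875823. Its level was 111.8 and 104.4 normalized CPM in 66708, against 1.12 and 1.30 in Mgp1U3, 1.98 and 2.12 in Mgp2, 2.53 and 3.27 in Mgp1, and 8.77 and 8.48 in Mgp1U1. Both 66708 libraries also lay far above the lines whose hairpins are not named after Mgp. The Slpi-directed libraries held 14.3 to 30.7, and 66708 was 5.57-fold above them (log2 difference 2.48, limma, adjusted p = 7.125e-19). Against the Mgp-directed lines the log2 difference was 5.25 ± 0.09 (SE; limma, adjusted p = 1.317e-20). In the plot of levels by line, 66708 stands above the 9 other lines for Mgp, and between the Mgp-directed and the Slpi-directed lines for Slpi.

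**Figure D1:**
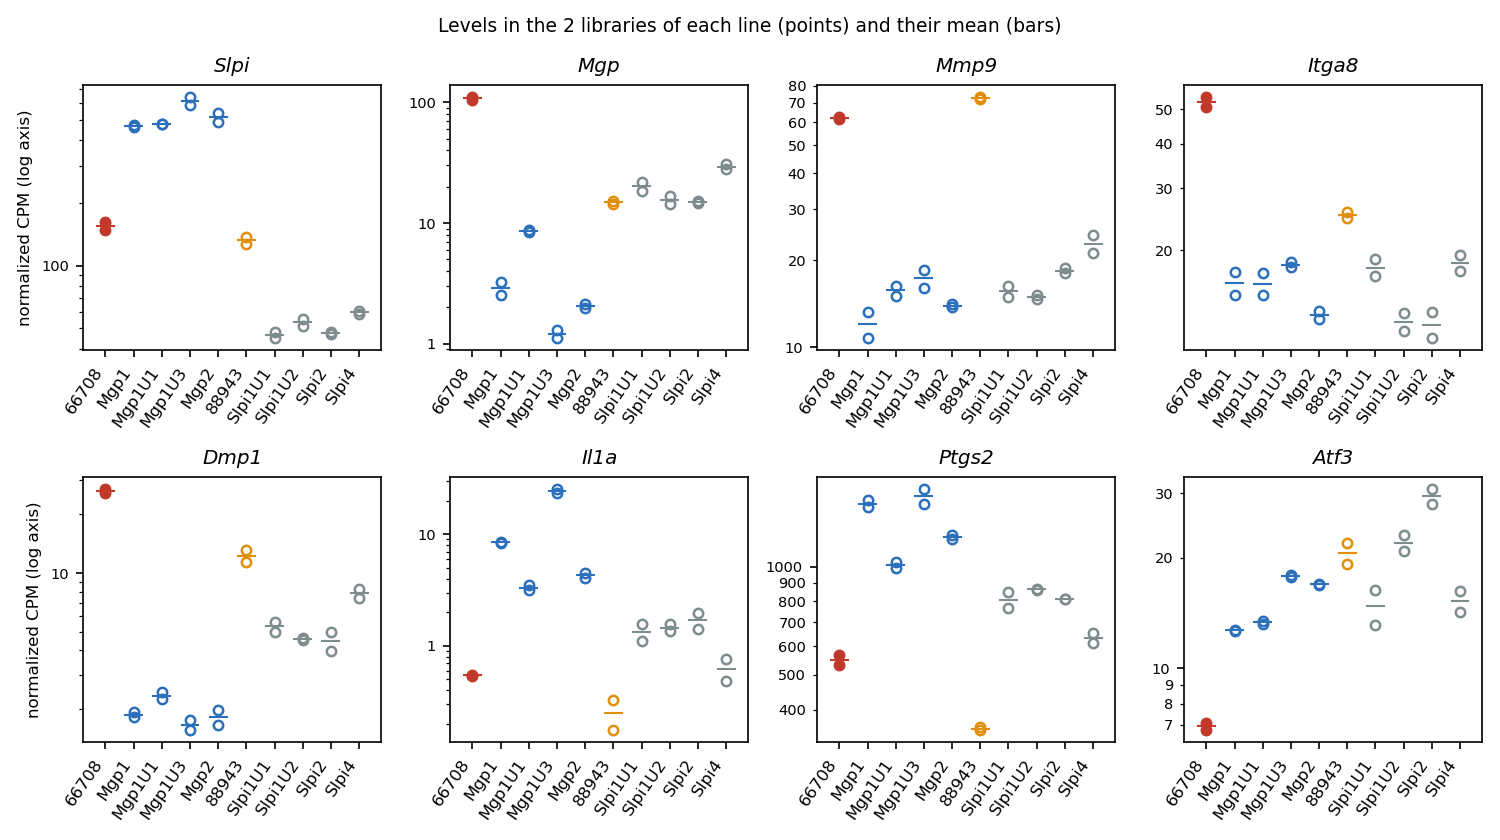
Normalized CPM (log axis) of 8 genes in the 2 libraries of each of the 10 lines; points are libraries, short bars the mean of a line, red 66708, blue the Mgp-directed lines, orange 88943 and grey the Slpi-directed gene-named lines. Both 66708 libraries lie outside the 8 blue points in each panel, and outside the 18 other points for Mgp, Itga8, Dmp1 and Atf3.

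Of 11767 genes tested, 5491 (46.7%) differed between 66708 and the Mgp-directed lines at an adjusted p under 0.05 (limma). These were 2787 higher (23.7%) and 2704 lower (23%) in 66708. Most differences were small, with a median absolute log2 difference of 0.29 among the genes called, and 179 reached 2-fold, 107 of them higher and 72 lower. With line means as samples, with the spread taken from the 4 Mgp-directed lines and 66708 counted once, 1209 genes were called, 635 higher and 574 lower. Both 66708 libraries lay above the 8 Mgp-directed libraries for 2106 genes (17.9%) and below them for 2118 (18%). They lay above the 18 other libraries for 796 genes (6.76%) and below them for 658 (5.59%). Nothing in the labels says that the 2 libraries of a line came from separate cultures, so p-values rest on differences between these libraries alone, and that spread may be technical.

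**Figure D2:**
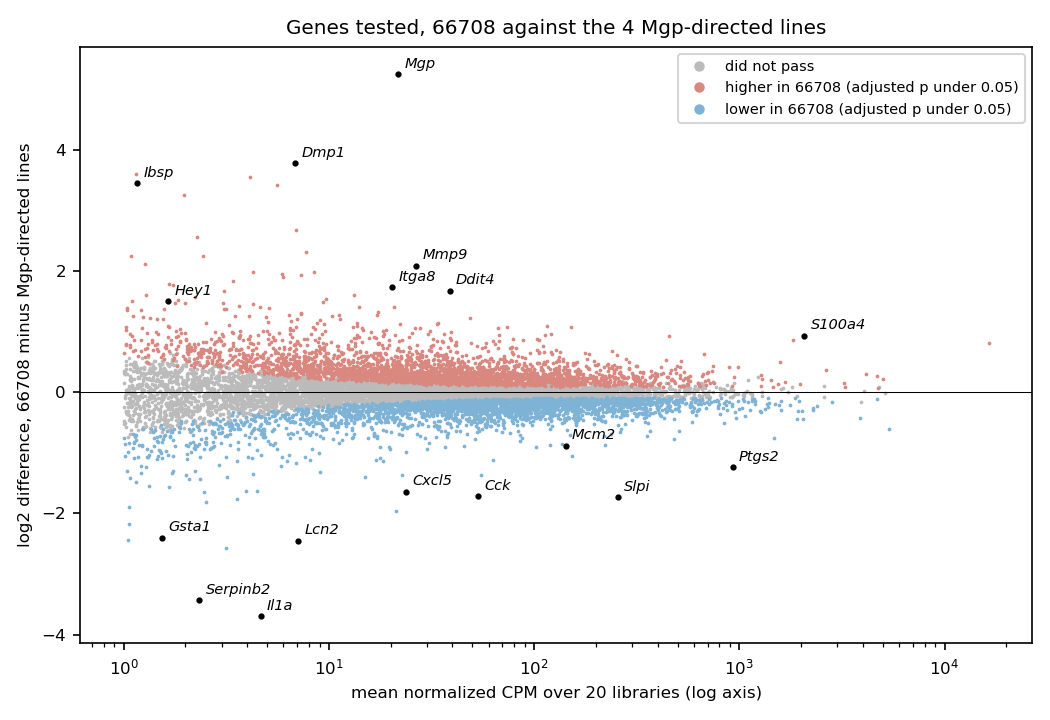
Log2 difference of 66708 minus the mean of the 4 Mgp-directed lines against the mean normalized CPM over 20 libraries (log axis); each point is 1 of 11767 genes tested, coloured by whether and in which direction it passed an adjusted p of 0.05. Named points mark genes described in the text, from Mgp at 5.25 to Il1a at -3.70.

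The other lines put these counts in context. Comparisons of 66708 or 88943 with a set of gene-named lines hold 2 against 8 libraries. That of 66708 with 88943 holds 2 against 2, and that between the sets of gene-named lines 8 against 8. More libraries give a smaller SE, so counts from comparisons of unlike size do not rank the sizes of the differences. The same test called 6581 genes (55.9%) between 66708 and 88943, and 6526 (55.5%) between 66708 and the Slpi-directed gene-named lines. Between the Slpi-directed and the Mgp-directed gene-named lines, which share the drug, it called 8229 (69.9%). Between 88943 and the Mgp-directed lines, which share the table, it called 8094 (68.8%). The share of higher calls in these 4 comparisons depended on the scaling: 55.16%, 53.19%, 48.69% and 47.85% as normalized here, and 34.75%, 36.08%, 66.23% and 65.34% with library totals alone. In the comparison of 66708 with the Mgp-directed lines it was 50.76% and 53.12%. Over the 8828 genes with a mean of at least 10 normalized CPM, the root mean square log2 difference of line means from 66708 was smallest for Mgp1U1 (0.254) and Mgp2 (0.259), followed by Slpi4 (0.266) and Mgp1 (0.272). It was 0.310 for Mgp1U3, 0.308 to 0.330 for the 3 remaining Slpi-directed lines, and 0.361 for 88943, the largest of the 9. The 2 libraries of 66708 differed from each other by 0.120, and the 4 Mgp-directed lines differed from one another by 0.144 to 0.190. The distance of 88943 from the Mgp-directed lines was 0.424 to 0.468. These distances are descriptions without a test.

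The largest increases were ranked among genes with a mean of at least 10 normalized CPM whose 66708 libraries both lay above the 8, and Mgp came first. Mmp9, a gelatinase that cleaves basement membrane collagen, stood at 62.5 and 61.7 normalized CPM against 10.8 to 18.5, a 4.25-fold higher level (log2 difference 2.09 ± 0.06, limma, adjusted p = 5.64e-17). Itga8, an integrin alpha chain that pairs with the beta 1 chain, stood at 50.7 and 54.3 against 12.8 to 18.5 (3.34-fold). Adamts9, a secreted protease that cleaves versican, was at 30.6 and 30.2 against 7.11 to 12.3 (3.04-fold). As the ranking required, both 66708 libraries lay above the highest Mgp-directed library for each gene in it. Itga1, the collagen-binding integrin alpha 1 chain, was 2.65-fold higher, and Sema4c, a membrane semaphorin, had a log2 difference of 1.31. Slc4a11, a membrane transporter, had a difference of 1.41, Cxcr3, a chemokine receptor, 1.27, and Aox1, an aldehyde oxidase, 1.26. Ddit4, an inhibitor of mTORC1 signalling induced by stress, showed 47.5 and 35.9 normalized CPM against 9.17 to 26.7, where the highest value came from 1 Mgp2 library. Tmem86a, a lysoplasmalogenase, had a difference of 1.28, and Nupr1 is described with the stress genes.

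A direct test set 66708 against 88943 for these genes. Mmp9 stood at 72.0 and 73.5 in 88943 (log2 difference of 66708 minus 88943 -0.23, limma, adjusted p = 0.003435). Slc4a11 was 64.6 normalized CPM in 88943, 16.8 in 66708 and 6.24 in the Mgp-directed lines, and 66708 minus 88943 was -1.97 (limma, adjusted p = 3.199e-15). Cxcr3 was 21.2 in 88943 and 19.6 in 66708 (log2 difference of 66708 minus 88943 -0.10, limma, adjusted p = 0.4216, which does not show that they are equal). By contrast, 66708 was above 88943 for Itga8 (1.06, limma, adjusted p = 2.721e-10), Adamts9 (1.07, 1.04e-09) and Itga1 (0.83, 5.264e-08).

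Among named genes with the same minimum of 10 normalized CPM, those whose 66708 libraries stood farthest above the 18 others were Mgp, Adamts9 and Itga8, followed by Fgfr1, Sulf2 and Ubtd1. Dmp1, whose mean was under that minimum, is described with the mineralization genes. Fgfr1, a receptor of fibroblast growth factors, stood at 52.9 and 56.7 normalized CPM, with 22.4 to 29.7 in the Mgp-directed libraries, 28.5 and 30.2 in 88943, and 18.1 to 24.8 in the Slpi-directed ones. Sulf2, an extracellular sulfatase that trims heparan sulfate, was at 34.4 and 35.9 against 14.4 to 20.3 in the Mgp-directed libraries and 6.54 to 10.9 in the rest. Ubtd1, which encodes a ubiquitin-like domain protein, was at 22.6 in both 66708 libraries and at 8.45 to 12.2 in the Mgp-directed ones.

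Ranked in the same way, the largest decreases were led by Prl2c2 and Slpi. Cxcl5, a chemokine that attracts neutrophils, stood at 10.8 and 12.5 normalized CPM against 22.9 to 95.0. The Mgp-directed lines differed widely among themselves, from 23.3 in Mgp2 to 94.6 in Mgp1U3, and with line means as samples Cxcl5 did not pass. Ptgs2, the inducible cyclooxygenase, was at 531.9 and 566.2 against 988.6 to 1644 (log2 difference -1.24 ± 0.04, limma, adjusted p = 8.475e-16). Cck, the peptide hormone cholecystokinin, stood at 32.6 and 27.6 against 77.8 to 121 (3.29-fold lower). C3, the central complement component, was at 8.34 and 7.56 against 14.7 to 36.9. The remaining 7 were Prl2c2 at a log2 difference of -1.96, Sorbs2 at -1.36, Prickle1 at -1.36, Dio2 at -1.13, Atf3 at -1.13, Slc30a1 at -1.12 and Klf11 at -1.09. Prl2c2, a proliferin, has near-identical copies among which reads may be split, so its value is uncertain. Sorbs2 is an adaptor at cell junctions, Prickle1 a planar polarity protein, Dio2 a deiodinase that activates thyroid hormone, Slc30a1 a zinc exporter, and Klf11 a transcription factor.

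**Figure D3:**
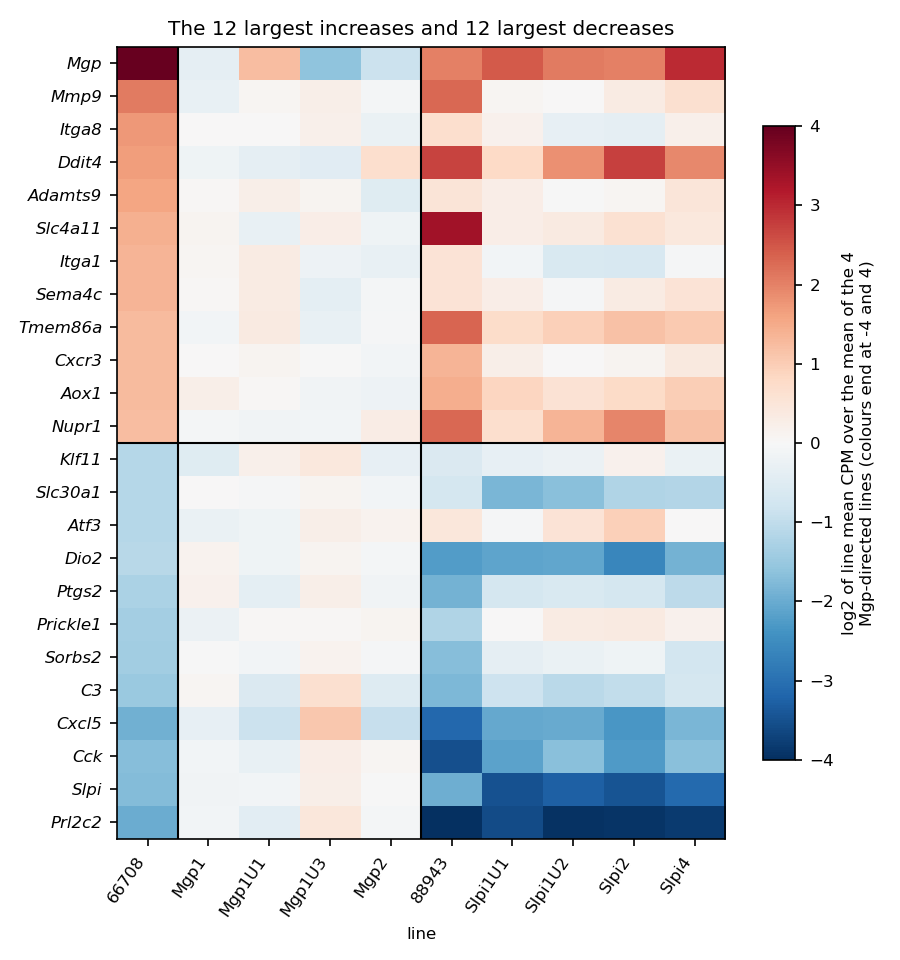
The 12 largest increases (upper block) and 12 largest decreases (lower block) in 66708 among genes with a mean of at least 10 normalized CPM; each cell is the log2 ratio of a line's mean CPM to the mean of the 4 Mgp-directed lines, which stand between the vertical lines. The Mgp cell of 66708 is beyond the end of the colour scale.

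The levels of some of these genes in the other lines are set side by side here. Ptgs2 was 354 normalized CPM in 88943, 549 in 66708, 779 in the Slpi-directed lines and 1320.1 in the Mgp-directed lines. Cck was 8.54 in 88943, and 66708 was above it, at a log2 difference of 1.81 (limma, adjusted p = 2.708e-08). Slc30a1, at 41.0 and 46.5 in 66708, was at 26.6 to 44.1 in the Slpi-directed libraries and at 85.1 to 106 in the Mgp-directed ones. Among named genes with that minimum and below the 18 other libraries, Atf3, Msln, Vegfa, Mcm2, Plekhh2 and Tmem245 stood farthest below. Msln, the surface glycoprotein mesothelin, was at 60.0 and 60.2 against 94.1 to 126 in the Mgp-directed libraries, 150.2 and 147.9 in 88943 and 149 to 214 in the Slpi-directed ones. Mcm2, a subunit of the replicative helicase, was at 83.5 and 84.8 against 149 to 166, with 121 and 125 in 88943. Plekhh2 and Tmem245 had log2 differences of -0.74 and -0.76.

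The 30 gene lists below were counted against a background of 46.7% of genes called and a median log2 difference of 0.00 over all genes tested. For the counts with line means as samples, the background was much lower. There 1209 of the 11767 genes were called, 635 higher and 574 lower. The cholesterol synthesis list had the highest median. Cholesterol is made from acetyl-CoA through mevalonate, isoprenoids and squalene, and the transcription factor SREBP-2 raises the genes of this pathway together when membrane sterol falls. Of 24 members tested, 22 were higher in 66708, none was lower and 2 did not pass, with a median log2 difference of 0.46. For 21 of them both 66708 libraries lay above the 8 Mgp-directed libraries. With line means as samples, 15 of the 24 were called, each higher.

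In the mevalonate branch, Mvd, which decarboxylates mevalonate diphosphate, stood at 32.3 and 30.7 normalized CPM against 12.9 to 19.3 (log2 difference 1.02 ± 0.06, limma, adjusted p = 2.888e-12). Pmvk, phosphomevalonate kinase, was at 47.2 and 45.1 against 20.9 to 27.2, and Fdps, farnesyl diphosphate synthase, at 94.0 and 95.4 against 45.0 to 63.1. For these 3 genes both 66708 libraries lay above the 18 others. The synthase Hmgcs1 had a log2 difference of 0.53 and the isomerase Idi1 of 0.62. Among the sterol-forming enzymes, Sqle had 0.39, Lss 0.68, Cyp51 0.63, Nsdhl 0.76 and Tm7sf2 0.77, and each passed. Insig1, which holds back SREBP processing when sterols are plentiful, had 0.47, and Srebf2, which encodes SREBP-2, 0.30. Hsd17b7, an enzyme of the later sterol steps, did not pass, at 0.03 (limma, adjusted p = 0.6469).

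The list also differed between 66708 and the other lines in direct tests. Against 88943, 21 of the 24 were higher in 66708 and none was lower (median 0.36), and against the Slpi-directed lines 24 of 24 were higher (median 0.58). Set beside 66708, the Slpi-directed lines against the same Mgp-directed lines had 7 members higher and 11 lower (median -0.12), and 88943 had 12 higher and 6 lower (median 0.09). These comparisons share their control libraries. In the plot of cholesterol genes, Idi1 separates the puromycin lines most, at 0.62 in 66708 and -0.85 in 88943.

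**Figure D4:**
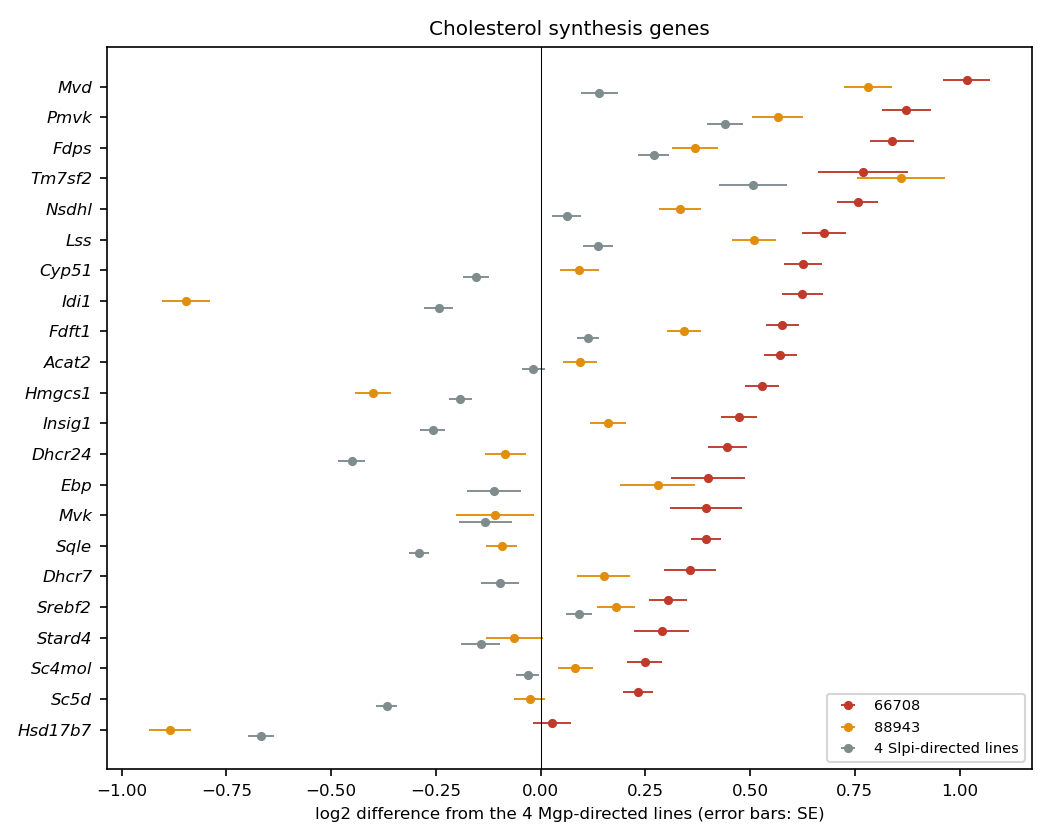
Log2 difference from the 4 Mgp-directed lines (error bars, SE) of 22 of the 24 cholesterol synthesis genes tested, in 66708 (red), 88943 (orange) and the mean of the 4 Slpi-directed gene-named lines (grey). Red points are at 0.03 to 1.02, and orange and grey points fall on both sides of 0.

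Promoter windows are shown for 5 genes of this list because most of its members were higher together. SREBP-2 is known to act with NF-Y, which binds the letters CCAAT, and TCACNCCA is a common form of the sterol regulatory element. Of the 24 genes tested, 16 had an entry in RefSeq (GRCm38.p6), and 15 of these 16 (93.75%) held CCAAT on either strand in the 250 bases before the start, against 37.49% of 27025 genes with an entry. TCACNCCA was present in 2 of the 16 (12.5%), Hmgcs1 and Srebf2, against 4.204% of the 27025. The windows below run 5′ to 3′ on the gene's strand, upstream of the start, with CCAAT, its reverse complement ATTGG, and TCACNCCA in capitals. Mvd is at chr8:122443440-122443539 (minus strand), Idi1 at chr13:8885502-8885601 (plus), Nsdhl at chrX:72918407-72918506 (plus), Hmgcs1 at chr13:119690127-119690226 (plus) and Hsd17b7 at chr1:169969208-169969307 (minus).
Mvd: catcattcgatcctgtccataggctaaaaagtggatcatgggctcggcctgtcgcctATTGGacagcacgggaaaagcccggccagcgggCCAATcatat
Idi1: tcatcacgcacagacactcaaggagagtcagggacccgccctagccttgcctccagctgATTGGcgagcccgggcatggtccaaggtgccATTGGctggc
Nsdhl: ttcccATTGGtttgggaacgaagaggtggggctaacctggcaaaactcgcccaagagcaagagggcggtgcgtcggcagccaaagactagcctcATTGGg
Hmgcs1: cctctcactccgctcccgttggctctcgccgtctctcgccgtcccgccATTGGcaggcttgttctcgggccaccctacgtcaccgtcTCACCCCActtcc
Hsd17b7: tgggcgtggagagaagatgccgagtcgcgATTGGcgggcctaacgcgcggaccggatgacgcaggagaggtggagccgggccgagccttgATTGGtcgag
Hsd17b7, which did not differ beyond the spread, held 2 such matches, as Mvd, Idi1 and Nsdhl did. A match is a description of these letters and not a binding site, and the motifs were picked after the values were known.

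Of 22 genes of fatty acid synthesis and lipid droplets tested, 13 were higher and 6 lower (median 0.19; 5 higher and 3 lower with line means as samples). Scd2, a desaturase that makes oleic and palmitoleic acid, stood at 2735 and 2790 normalized CPM against 1393 to 1684 (log2 difference 0.86, limma, adjusted p = 5.592e-16), and Scd1 had a difference of 0.69. Lower were Plin2, a coat protein of lipid droplets, at 122 and 119 against 203 to 234, Cpt1a, which admits fatty acids to mitochondria, at 25.8 and 27.9 against 44.2 to 59.3, and Dgat2, which makes triglyceride, at a log2 difference of -1.07. For Plin2 and Cpt1a both 66708 libraries lay below the 18 others.

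Among 25 epithelial adhesion and junction genes tested, 17 were higher and 4 lower (median 0.32; 7 and 3 with line means as samples). Jup, the plaque protein plakoglobin, stood at 111 and 101 normalized CPM against 46.0 to 55.9, Epcam, an epithelial adhesion molecule, at 109 and 116 against 54.8 to 69.4, and Cldn4, a tight junction claudin, at 18.6 and 17.0 against 6.77 to 12.1. The groups did not overlap for these 3 genes. Esrp1, an epithelial splicing regulator, had a log2 difference of 0.93 and its relative Esrp2 one of -0.48. Grhl1, a transcription factor of epithelia, was lower at -0.87, Cldn3 was at -0.43, and Dsp, desmoplakin, at -0.32. Against 88943 the direct test gave 2 members higher and 14 lower in 66708 (median -0.28). Of 7 keratins, 4 were higher and 1 lower (median 0.20; 3 higher with line means as samples), with Krt18 at 0.63, Krt8 at 0.53 and Krt14 at 0.90, and Krt16 lower at -0.60, a call lost in 6 of the fits that leave out 1 library. Mesenchymal genes and regulators of epithelial to mesenchymal transition gave 6 higher and 2 lower of 12 (median 0.15; 1 and 2 with line means as samples): S100a4 was at 0.93, Zeb1 at 0.60 and Foxc2 at 0.42, and Tnc, the matrix protein tenascin C, at -0.85. Zeb1 lost its call without 1 of the 66708 libraries.

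Of 9 genes in the list of S100 proteins, small calcium-binding proteins, 7 were higher and none was lower (median 0.42; 4 higher with line means as samples). Among the 7, S100pbp (0.20), encodes a binding protein and not an S100 protein. S100a4, linked to metastasis, stood at 4371 and 3819 normalized CPM against 1786 to 2353, above the 18 other libraries. S100a13 had a log2 difference of 0.69, S100a1 of 0.60 and S100a10 of 0.42. S100a11 (0.15) and S100a7a (-0.39) did not pass.

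Adhesion receptors and matrix genes followed. Of 21 integrin and laminin chains, 13 were higher and 2 lower (median 0.22; 5 and 2 with line means as samples). Besides Itga8 and Itga1, Itgb4, the beta chain of hemidesmosomes, stood at 115 and 108 normalized CPM against 50.8 to 67.0, and the laminin chains Lama3 and Lamb3 had log2 differences of 0.66 and 0.44. Itgb7 was lower at -1.10 from a low level, and Itga7 at -0.75. Among 17 collagens and matrix glycoproteins, 7 were higher and 2 lower (median 0.13; 3 higher with line means as samples), with Col18a1 at 0.86, Col6a1 at 0.81, Col6a2 at 0.54 and Col12a1 at 0.87. The Col12a1 libraries of 66708, at 11.8 and 17.3, overlapped the Mgp-directed ones at 6.42 to 12.5.

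Metalloproteinases gave 9 higher and 4 lower of 16 (median 0.25; 4 and 2 with line means as samples). Next to Mmp9 and Adamts9, Mmp3, stromelysin 1, stood at 187 and 181 normalized CPM against 72.8 to 156, with 69.4 in 88943 and 52.2 in the Slpi-directed lines, and Mmp1a had a log2 difference of 0.69; neither passed with line means as samples. Adamts1 (-0.68) and Adam9 (-0.51) were lower. Of 14 serine proteases and activators, 8 were higher and 2 lower (median 0.22; 4 and 1 with line means as samples), with Prss22 at 1.09, Htra3 at 0.82, Prss8, prostasin, at 0.79, and St14, matriptase, at 0.55. Klk8 was lower at -0.95, a call lost without 1 of the 66708 libraries. Protease inhibitors and related proteins, not all of them secreted, gave 9 higher and 4 lower of 16 (median 0.22; 3 and 2 with line means as samples). With no minimum level, 29 members were tested and the median was -0.08. The largest of these differences was in Serpinb2, plasminogen activator inhibitor 2, at 0.468 and 0.396 normalized CPM (6 and 11 reads) against 2.31 to 7.08. Its log2 difference was -3.43, and that of Slpi -1.73. Serpinb5, maspin, was at 0.69, Cstb, cystatin B, at 0.47, and Wfdc2, a neighbour of Slpi in the same family, at 0.27.

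Of 13 mineralization genes tested, among them Mgp, the gene to which the hairpins of the comparison lines are directed, 6 were higher and 3 lower (median 0.10; 5 and 1 with line means as samples). With no minimum level the median over 18 members was -0.04. Dmp1, an acidic matrix protein of bone and dentin, stood at 25.8 and 27.1 normalized CPM against 1.56 to 2.44, 13.8-fold higher (log2 difference 3.78 ± 0.10, limma, adjusted p = 1.679e-17), and it was at 11.4 and 13.1 in 88943. Ibsp, bone sialoprotein, stood at 3.82 and 3.60 (49 and 100 reads) against 0.117 to 0.835 (2 to 13 reads). Spp1, osteopontin, was at 2257 and 2272 against 1484 to 1899. Both 66708 libraries lay above the 18 others for these 3 genes and for Mgp. Lower were Alpl, tissue-nonspecific alkaline phosphatase (-0.49), and the phosphate transporters Slc20a2 (-0.30) and Slc20a1 (-0.29). Among 10 genes of bone morphogenetic protein signalling and its Id targets, 4 were higher and 2 lower (median 0.12; 2 higher with line means as samples), and with no minimum level the median over 18 members was -0.02. Hey1, a repressor induced by BMP and Notch signals, was at 4.91 and 4.32 against 1.13 to 1.94, Id1 had a log2 difference of 0.55 and Id3 of 0.35, and the ligand Bmp7 was lower at -0.38.

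Of 23 NF-kappaB targets and chemokines, 6 were higher and 8 lower (median 0.01; 2 and 4 with line means as samples). Il1a, the cytokine interleukin 1 alpha, stood at 0.545 and 0.540 normalized CPM (7 and 15 reads) against 3.15 to 25.6 (49 to 402 reads), a log2 difference of -3.70 ± 0.25 (limma, adjusted p = 1.145e-10). Lcn2, the siderophore-binding lipocalin 2, was at 2.42 and 1.87 against 6.27 to 22.9. Ccl5 (-0.84), Cxcl1 (-0.74) and Csf2 (-0.47) were lower too. Higher were Cx3cl1, the membrane-bound chemokine fractalkine, at 1.13, the feedback inhibitors Nfkbie (0.72) and Nfkbia (0.31), and Bcl3 (0.52). For Il1a, Lcn2 and Cxcl5, 88943 was lower still, and 66708 was above it by 1.10, 2.36 and 1.24 in the direct test (limma, adjusted p = 0.01366, 1.44e-06 and 3.399e-07). Prostaglandin genes gave 2 higher and 3 lower of 10 (median -0.15; 1 and 2 with line means as samples): beside Ptgs2, the exporter Abcc4 was at -0.55 and the phospholipase Pla2g4a at -0.33, and the importer Slco2a1 at 0.35.

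Of 25 interferon-stimulated genes, 7 were higher and 3 lower (median 0.07; 2 and 1 with line means as samples). Ifitm3, which blocks virus entry, stood at 467 and 410 normalized CPM against 256 to 317, and the transcription factor Irf1 had a log2 difference of 0.77, while Oasl1 was at -1.32. The share called was below the background of 46.7%. In the MHC class I list, 9 of 14 were higher and 1 lower (median 0.32; 4 and 1 with line means as samples). The immunoproteasome subunits Psmb9 (0.96), Psmb10 (0.63) and Psmb8 (0.56), the loading factor Tapbp (0.73) and the heavy chain H2-K1 (0.35) were among those higher. Their activator Nlrc5 was lower at -0.46, and B2m, at -0.01, did not pass. In direct tests of the MHC class I list, 66708 had 4 members higher and 2 lower than the Slpi-directed lines (median 0.03). Against 88943 it had 6 higher and 5 lower (median 0.19). Set against the same Mgp-directed lines, the Slpi-directed lines had 10 higher and 2 lower (median 0.29), and 88943 had 8 higher and 5 lower (median 0.19).

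The integrated stress response list, genes induced through ATF4 when translation initiation is held back, gave 14 higher and 2 lower of 27 (median 0.18). With line means as samples 3 were higher and 1 lower, without 66708 library 2 the count was 9 higher, and with GC and length trends removed it was 10. The largest increases were Ddit4 at 1.67, Nupr1, a stress-induced chromatin protein, at 55.5 and 50.6 normalized CPM against 19.1 to 28.8, and Cth, which makes cysteine, at 1.08. The amino acid synthesis enzymes Psat1 (0.26) and Psph (0.30) passed, and Asns (-0.01) and Phgdh (0.03) did not. Atf3, a repressor induced in the same response, went the other way, at 7.09 and 6.77 against 12.6 to 17.9, and below the 18 other libraries. Ppp1r15a, the phosphatase subunit that ends the response, was at -0.43. In direct tests the list was lower in 66708 than in 88943 for 24 of 27 and higher for 1 (median -1.10), and lower than in the Slpi-directed lines for 20 and higher for 1 (median -0.60). Of 14 amino acid transporters, 3 were higher and 4 lower (median -0.04; 2 and 1 with line means as samples), led by Slc6a9 at 0.69 and Slc1a5 at -0.43.

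Windows from 3 stress genes show that the same letters stand before genes that were higher, lower and not called. TGATGNAA, a common form of the element bound by ATF4 with its partners, was present on either strand in 7 of the 24 tested genes of the list that had a RefSeq entry (29.17%), against 3.907% of the 27025. In capitals are this motif or its reverse complement, upstream of the start: Nupr1 at chr7:126625568-126625667 (minus strand), Atf3 at chr1:191183431-191183530 (minus) and Asns at chr6:7693220-7693319 (minus).
Nupr1: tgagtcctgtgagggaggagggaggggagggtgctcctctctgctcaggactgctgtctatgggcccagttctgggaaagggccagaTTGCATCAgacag
Atf3: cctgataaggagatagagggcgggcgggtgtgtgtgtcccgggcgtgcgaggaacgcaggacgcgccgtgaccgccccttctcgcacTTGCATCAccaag
Asns: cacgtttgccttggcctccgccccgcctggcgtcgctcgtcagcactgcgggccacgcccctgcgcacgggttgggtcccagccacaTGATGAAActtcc
Nupr1 had a log2 difference of 1.22, Atf3 of -1.13 and Asns of -0.01.

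Genes of ER folding and the unfolded protein response gave 9 higher and 3 lower of 21 (median 0.03; 3 higher with line means as samples, and 5 higher without 66708 library 2), with Xbp1 at 0.55, Herpud1 at 0.51 and Pdia6 at 0.38. Hypoxia and glycolysis genes gave 7 higher and 9 lower of 28 (median -0.02). With line means as samples 2 were higher and 4 lower, and leaving out single libraries gave 4 to 8 higher, with the 4 without 66708 library 1, and 6 to 10 lower. Vegfa, the angiogenic growth factor, stood at 17.1 and 17.0 normalized CPM against 24.5 to 28.6, with 59.4 and 58.7 in 88943 and 39.4 to 56.8 in the Slpi-directed libraries. Adm, adrenomedullin, was at -1.17 and Pdk1 at -0.42, while Aldoc was at 1.07 and Car9 at 0.36. For Vegfa, Adm and Pdk1 both 66708 libraries lay below the 18 others. Of 26 antioxidant and NRF2 target genes, 13 were higher and 7 lower (median 0.10; 4 and 1 with line means as samples, and 3 lower without 66708 library 2), from Gstm1 at 0.93 and Gpx4 at 0.65 to Gsta1 at -2.40, whose 66708 level was 0.623 and 0.468 normalized CPM and which has close relatives among which reads may be split. Drug efflux pumps gave 2 higher and 3 lower of 10 (median -0.18; 1 and 3 with line means as samples), with Abcc3 at 1.00 and Abcc1 at -0.40.

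Of 26 mitosis and spindle genes, 18 were lower and 2 higher (median -0.15), with Cenpe, a kinetochore motor, at -0.32, Ccnb1, cyclin B1, at -0.31, and Cenpf at -0.29. With line means as samples 2 were lower and none higher, and without 66708 library 2 the count was 13 lower. The cell cycle and DNA replication list gave 4 higher and 10 lower of 28 (median -0.04; 2 lower with line means as samples, and 2 higher without 66708 library 1), and its large differences were Ccne1, cyclin E1, at -1.07 and Mcm2 at -0.88. The other 5 subunits of the helicase were at -0.13 (Mcm4), -0.06 (Mcm3), -0.06 (Mcm5), 0.05 (Mcm6) and 0.14 (Mcm7). Of 23 immediate early and ERK feedback genes, 9 were higher and 6 lower (median 0.14; 4 and 3 with line means as samples, and 3 lower without 66708 library 2), from Egr2 at 1.26 to Dusp5 at -0.85, the latter a call lost without 1 of the 66708 libraries. The p53 list gave 9 higher and 3 lower of 19 (median 0.12), 5 higher without 66708 library 2, and 1 higher with line means as samples. Gadd45a was at 0.97 and Perp at 0.47, while Cdkn1a, the cell cycle inhibitor p21, at 0.08, did not pass.

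Among 16 genes of the small RNA pathway itself, 2 were higher and 6 lower (median -0.06; 1 lower with line means as samples). Dicer1, which cuts hairpins into small RNAs, stood at 209 and 213 normalized CPM against 246 to 282, Xpo5, which exports hairpin precursors from the nucleus, was at -0.27, and Ago2, the slicing Argonaute, at -0.17, while Ago1 was at 0.27. Cytoplasmic ribosomal protein genes gave 16 higher and 2 lower of 50 (median 0.08), a count that was 6 higher without 66708 library 1 and 22 without library 2, and none passed with line means as samples. Of 16 histone genes, 5 were higher and 1 lower (median 0.25; 1 higher with line means as samples, and 9 without 66708 library 2). In both the ribosomal protein and the histone list, the share called was below the background of 46.7%. It was near that background in the lists of small RNA, cell cycle and DNA replication, amino acid transporter, prostaglandin and drug efflux genes. In the plot of list members, the cholesterol list lies almost wholly to the right of 0 and the mitosis list mostly to the left within a narrow range.

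**Figure D5:**
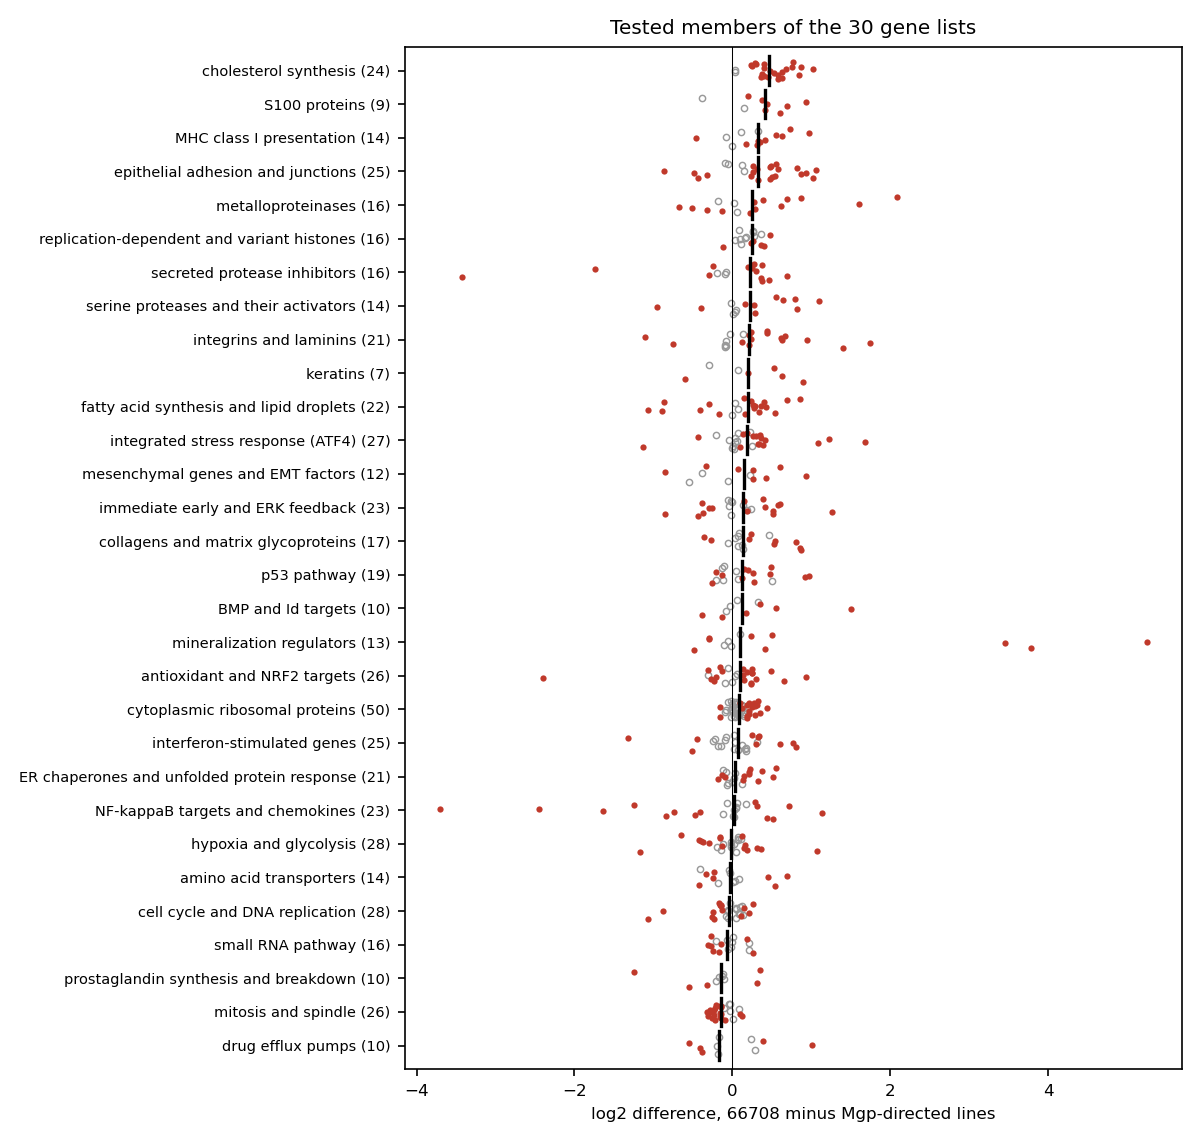
Log2 difference of 66708 minus the Mgp-directed lines for the tested members of 30 gene lists (number tested in brackets); filled points passed an adjusted p of 0.05, open points did not, and black bars are list medians. Lists are ordered by median, from cholesterol synthesis at 0.46 to drug efflux pumps at -0.18.

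Base composition and length moved with the differences to a small degree. Median log2 differences rose from -0.04 in the lowest of 4 groups of genes by GC content to 0.07 in the highest, and fell from 0.06 in the group with the shortest transcripts to -0.05 in the longest. When both trends were removed, 135 of the 136 genes named by rule kept their call. Of these 136 genes, 99 also passed with line means as samples, and 11 lost their call when 1 library was left out.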

How the data were processed

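The data were RNA-seq of 4T1 lines, deposited as 2 tables of 23480 genes with 20 library columns. Per the submitters' processing notes, reads were handled with Bowtie2, HTSeq and DESeq against mm10, and the versions were not given in the sources used here. The deposited values were log2-scale, variance-stabilized counts made by the authors in each table separately. Inverting the transformation gave whole reads for 100.0% of values within 0.001 of a whole number in each library. The 40 labelled samples number 4 per hairpin and the tables hold 2 columns per hairpin, so each column was assigned to its hairpin only. That 66708 is aimed at Slpi rests on its table.

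Recovered reads of all 20 libraries were scaled together by the median of ratios over 13288 genes with a read in each library. Normalized CPM are reads of a gene over the scaled library total, in CPM. Genes with a mean of at least 1 normalized CPM were fitted with limma 3.58.1 (voom weights, R 4.3.3), 1 mean per hairpin over all 20 libraries, hairpins weighted equally. P-values were two-sided and adjusted by Benjamini and Hochberg over 11767 genes, and calls were made at 0.05. The procedure was tested on simulated data.

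Genes were named by rule: Slpi and Mgp, the 12 largest increases and decreases among genes with a mean of at least 10 normalized CPM whose 66708 libraries lay outside the 8, the 6 farthest above and below the 18 other libraries, and up to 4 called members of each of 30 lists with the largest differences. Unnamed gene models were passed over. A few list members are not reported here by name. Other genes given as examples were chosen after their values were seen. The members and lists were chosen with earlier results of these data known. Positions are from GENCODE M21 (GRCm38). Alternatives covered scaling, weights, minimum level, libraries, line means as samples and a replicate block. The removal of GC and length trends was chosen after seeing the data, and covered 11682 genes.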

Additional observations from a re-analysis of the deposited data

Results flagged for a closer look

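In 7 of the 136 named genes, 1 of the 4 Mgp-directed lines stood apart from the other 3 by Dixon's criterion for 4 values, which chance meets in about 1 in 20 groups. Line Mgp1U3 was apart for 5 of them. It was high for Abcc1 at 174.51 normalized CPM (the others at most 148.04), for Abcc4 at 65.098 (54.941), for Cxcl5 at 94.621 (35.5) and for Krt14 at 20.749 (17.085), and low for Dusp5 at 2.4129 (the nearest line at 2.8197). Line Mgp1U1 was high for Ibsp at 0.54287 (the others at most 0.29929). Line Mgp2 was high for Nupr1 at 27.677 (21.375).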

How the results depend on the processing

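The count of genes called between 66708 and the Mgp-directed lines (5491) fell to 1825 with line means as samples and the spread from the gene-named lines of both tables, and to 1209 with the spread from the 4 Mgp-directed lines alone; these fits have fewer samples and treat 66708 as 1. Under the other planned settings it was 4526 to 5467, and 3872 to 5687 when each library was left out in turn. Leaving out each Mgp-directed line in turn gave 5076 (Mgp1U3) to 5794 (Mgp2). The difference in Slpi ran from -1.86 with GC and length trends removed to -1.65 without line Mgp1U3, and that in Mgp from 4.78 to 5.78, and both passed under each setting run. None of the differences of the 136 genes named by rule changed sign in the settings checked for all of them. These were library totals alone, an intensity trend in place of weights, line means with the spread from the 4 Mgp-directed lines, and the replicate block. Leaving out single libraries and removing GC and length trends were also among them. In the remaining settings only Slpi and Mgp were checked for sign. With library totals alone, the split of calls turned from 3630 higher and 2951 lower to 2340 and 4393 against 88943, and from 3471 and 3055 to 2391 and 4236 against the Slpi-directed lines. The Slpi-directed against Mgp-directed split went from 4007 and 4222 to 5463 and 2786, and that of 88943 from 3873 and 4221 to 5388 and 2858. With no minimum level the medians of 6 lists turned below 0: protease inhibitors (-0.08), mineralization (-0.04), BMP (-0.02), keratins (-0.05), mesenchymal genes (-0.05) and NF-kappaB targets (-0.11). The library numbers did not pair the samples: the deviations of 66708 correlated with those of Mgp1, Mgp1U1, Mgp1U3 and Mgp2 at 0.018, -0.189, 0.265 and 0.363. With the number as a replicate block, 5389 genes were called in this comparison, 6455 against 88943, 6434 against the Slpi-directed lines, 8244 between the Slpi-directed and Mgp-directed lines and 8027 between 88943 and the Mgp-directed lines, and 134 of the 136 named genes kept their call. Without 66708 library 2, the calls of Dnajb9, Dusp5, Fas, Ifi44, Klk8, Krt16, S100a3 and Zeb1 were lost, and without library 1 those of Dgcr8, Hist1h2bk and Rpl28. The levels of Il1a (7 and 15 reads) and Serpinb2 (6 and 11 reads) in 66708 carry wide counting error.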

Other observations

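Genes tested on either side of the largest differences, chosen after their values were seen, were looked up by position. Among the genes tested, Dmp1, Ibsp and Spp1 follow one another on chromosome 5. The tested genes on the other side of Dmp1, Hsd17b11 and Nudt9, each had a log2 difference of 0.51 and passed (limma, adjusted p = 6.808e-06 and 2.293e-08). Near Mgp on chromosome 6, Arhgdib was higher at 0.76 and Rerg, a Ras-like GTPase, at 0.90, while H2afj (0.01) and Wbp11 (-0.06) did not pass. Near Slpi on chromosome 2, Wfdc2 (0.27) and Sdc4 (0.16) were higher, Pigt (-0.13) was lower, and Sys1 (-0.14) and Dbndd2 (-0.01) did not pass.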
